A study of Homo sapiens with 6 samples.

Results

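Lysine acetyltransferases transfer an acetyl group from acetyl-CoA to lysines of histones and other proteins, a mark that bromodomain and YEATS proteins read and that deacetylases remove. TIP60 (KAT5), the enzyme of the EP400 and TRRAP complex under study, is a member of the MYST family, and cells carry several further acetyltransferases in complexes of their own. The genes described here are 10 such enzymes outside TIP60, found by their symbols among the 60609 genes of the count tables. They are EP300 and CREBBP, 2 paralogous coactivators that acetylate histone H3 at enhancers; the MYST enzymes KAT6A, KAT6B, KAT7 and KAT8; KAT14, a subunit of the ATAC complex; HAT1, which acetylates newly made histone H4 before its deposition on DNA; TAF1, the largest subunit of the general transcription factor TFIID; and NCOA3, a coactivator of nuclear receptors. The acetyltransferase activity of TAF1, NCOA3 and KAT14 is less well established than that of the others.

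RNA was sequenced from K562, an established human leukaemia line with erythroid features. Both groups carried the degradation tag dTAG on the endogenous EP400 and were treated with 500 nM dTAGV-1 for 24 h, which removes the tagged protein. They differed in the EP400 expressed from the AAVS1 locus, which was WT in 3 libraries and Delta-TRRAP, without the SANT and HD domains that hold the TRRAP module, in the other 3. Each complemented line was 1 clone, so that the EP400 construct and the clone cannot be told apart, and the p-values measure the spread between libraries of 1 clone. No untreated or untagged cells are compared here.

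The libraries held 35076835 to 42616061 counts. Genes detected numbered 25668 to 25998 (WT) and 27928 to 28033 (Delta-TRRAP), and mitochondrially encoded genes took 3.18 to 3.71% and 5.07 to 6.24% of the counts. The tag acts on the EP400 protein and reads of the endogenous and the added gene are counted together, so the EP400 count does not check the labels (log2 fold change 0.14 ± 0.11 SE, adjusted p = 0.272); TRRAP itself was at 0.05 ± 0.11 (adjusted p = 0.713). Of 9 erythroid markers, all passed the filter on low counts, 4 were higher and 3 lower in Delta-TRRAP, and their normalized counts summed to between 225144 and 227662 in the WT libraries and between 127817 and 136652 in the Delta-TRRAP libraries, most of it from the transferrin receptor TFRC. The labels give the cell type as lymphoblast. Of 8 lymphoid markers, 4 passed the filter and had log2 fold changes between -0.52 and 0.83, none past the adjusted p, with sums of 508 to 519.9 (WT) and 455 to 487 (Delta-TRRAP). Of 7 fibroblast markers, 4 passed the filter, 2 were higher, and the sums were 35.5 to 57.0 (WT) and 909.7 to 973 (Delta-TRRAP). Nearly all of it was the collagen gene COL1A2 (876 ± 45.1 in Delta-TRRAP), whereas LUM had 0 counts in every library. The 2 higher genes, COL1A2 and PDGFRB, averaged 1.62 and 1.65 normalized counts in WT. They passed the filter, a mean of 5 over all libraries, only through Delta-TRRAP. Of all tested genes, 30.7% passed higher and 27.6% lower. The part of these differences in the results that follow was not tested, and in bulk RNA fewer cells of a type and less RNA per cell cannot be told apart.

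The acetyltransferase genes were measured on normalized counts (TMM scaling, which sets the libraries to a common depth). All 10 passed the filter on low counts, a mean of 5 normalized counts or more, as 19114 genes did, and the edgeR quasi-likelihood test was run over all of these with Benjamini-Hochberg adjustment. None of the 10 reached the study's call of an adjusted p of 0.01 or less with a fold change of at least 2, a call that 22.6% of all tested genes received. The count of 0 was also given by DESeq2 and limma-voom, and 6 of the 10 had an unadjusted p under 0.05 in edgeR, as did 70.4% of all tested genes. On the adjusted p alone HAT1 and NCOA3 fell, KAT14 rose and the other 7 did not pass. That is 3 of 10, where 58.3% of all tested genes passed, 27.6% lower and 30.7% higher. The 2 groups of libraries did not overlap for 5 members, against 71.1% of all tested genes. The members are well expressed, and among the 8851 genes at or above the mean of the lowest member (433 normalized counts) 43.9% passed lower, 24.2% passed higher, and 8.37% were called at the fold threshold. The median log2 fold change was -0.06 for the 10 members, 0.03 for all tested genes and -0.12 for those 8851 genes.

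**Figure D1:**
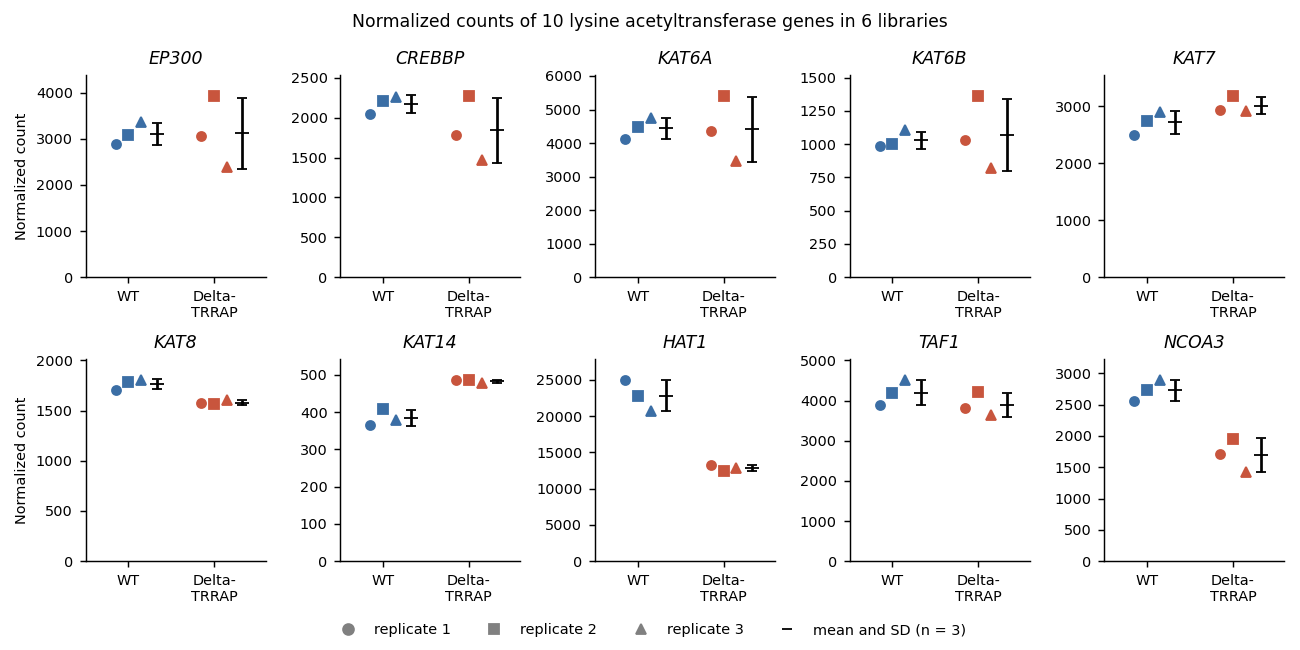
Normalized counts (vertical axes, linear from 0) of each of the 10 genes in the 3 WT (blue) and 3 Delta-TRRAP (red) libraries; marker shapes give the replicate and black bars the mean and SD. The HAT1 and NCOA3 groups lie apart with Delta-TRRAP lower, KAT14 lies apart with Delta-TRRAP higher, and EP300, CREBBP, KAT6A and KAT6B spread widely in Delta-TRRAP.

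The promoters of HAT1 and NCOA3 are shown because these are the 2 members whose transcripts fell. The windows are 230 bases on the plus strand of GRCh38.p14, from the RefSeq promoter set, and end before the annotated transcript start. They were searched on both strands for 3 motifs, the E-box CACGTG bound by MYC among others, the E2F sites TTTCGCGC and TTTGGCGC, and the GC box GGGCGG, and matches are in capitals.
HAT1, chr2:171922211-171922440: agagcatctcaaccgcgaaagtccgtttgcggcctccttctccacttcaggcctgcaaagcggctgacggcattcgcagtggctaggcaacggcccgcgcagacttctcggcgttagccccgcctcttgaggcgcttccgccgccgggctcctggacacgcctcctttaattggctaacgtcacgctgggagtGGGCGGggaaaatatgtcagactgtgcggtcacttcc
NCOA3, chr20:47501637-47501866: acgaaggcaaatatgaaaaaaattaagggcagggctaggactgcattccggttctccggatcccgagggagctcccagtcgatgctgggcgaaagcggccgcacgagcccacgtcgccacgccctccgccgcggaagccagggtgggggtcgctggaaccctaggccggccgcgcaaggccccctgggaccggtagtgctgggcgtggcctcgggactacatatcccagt
The HAT1 window held 1 GC box, and the NCOA3 window held none of the 3 motifs. Over 35116 promoter windows of the same length, 40% held the GC box, 5.74% the E-box and 0.874% an E2F site, so most promoters lack the last 2.

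HAT1 (ENSG00000128708.13, chr2:171922448-171983686, plus strand) had the highest level of the members and fell furthest. It had 24950.4, 22767 and 20666 normalized counts in WT replicates 1, 2 and 3 and 13267, 12467 and 12802 in Delta-TRRAP. Every Delta-TRRAP library lay below every WT library, and the WT libraries were the more spread of the 2 groups. The mean went from 22795 ± 2142 (SD, n = 3) to 12846 ± 401, or 56.4% of WT, a log2 fold change of -0.83 ± 0.06 SE (95% interval -0.96 to -0.69, edgeR adjusted p = 1.84e-08). Leaving out any one library kept it between -0.90 and -0.76. The 47 expressed genes that start within 5 Mb of HAT1 had a median log2 fold change of -0.26, with 26 lower and 12 higher, and 6 of the 47 had a lower value than HAT1. All 11459 expressed genes, with a mean of 100 normalized counts or more, had a median of -0.09. Among the 8851 genes above, 43.9% passed lower and 24.2% higher. SLC25A12, which lies across HAT1 on the opposite strand without sharing exons, is counted apart in these stranded libraries and had a log2 fold change of -0.47 ± 0.05 (edgeR adjusted p = 1.2e-06).

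Of 6 genes that act with HAT1 on free histone H4, 3 passed lower and 3 did not pass, where 43.9% of the 8851 genes above passed lower. RBBP7, the histone-binding partner in the HAT1 enzyme, fell by 0.26 on the log2 scale (13238 ± 309 to 11046 ± 231, edgeR adjusted p = 0.000204). RBBP4, its close relative found in several chromatin complexes, fell by 0.40 (adjusted p = 4.64e-06). NASP, a chaperone of H3 and H4, fell by 0.50, from 25870.5 ± 533 to 18356 ± 682 (adjusted p = 4.1e-07). The chaperones ASF1A and ASF1B had values of -0.06 and 0.13 and did not pass, and the importin IPO4 had about 14.2 normalized counts in WT, too few to read.

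NCOA3 (ENSG00000124151.19, chr20:47501887-47656877, plus strand) had 2565, 2732 and 2889.6 normalized counts in WT and 1719, 1947 and 1418 in Delta-TRRAP. The groups did not overlap, and Delta-TRRAP replicates 2 and 3 were the highest and lowest of their group. The mean fell from 2729 ± 163 to 1695 ± 265 (SD, n = 3), 62.2% of WT, a log2 fold change of -0.69 ± 0.09 SE (95% interval -0.87 to -0.50, edgeR adjusted p = 4.41e-06). This gene lies in a stretch of chromosome 20 whose genes were mostly lower. Of the 58 expressed genes within 5 Mb, 41 passed lower and 3 higher, with a median log2 fold change of -0.46, so NCOA3 lay 0.23 below its neighbours and 36.2% of them lay lower still. The 8851 genes above passed lower in 43.9% and higher in 24.2% of cases.

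The same held along the long arm. Beyond 30 Mb of chromosome 20, 199 genes reached 100 normalized counts on average, and 163 of them passed lower and 10 higher, with a median log2 fold change of -0.57. Over all 11459 genes at that level the median was -0.09, and the shares of the 8851 genes above were 43.9% lower and 24.2% higher. NCOA3 and the 4 partner genes located there all passed lower. These are NCOA6, a coactivator that binds nuclear receptors (-0.53), PHF20, a reader in the KAT8 NSL complex (-0.87), TAF4, a TFIID subunit (-1.04), and ACSS2, which makes acetyl-CoA from acetate (-0.39). This region was looked at after the values of NCOA3 and its neighbours had been seen. The DNA copy number of the 2 clones was not analysed here.

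**Figure D2:**
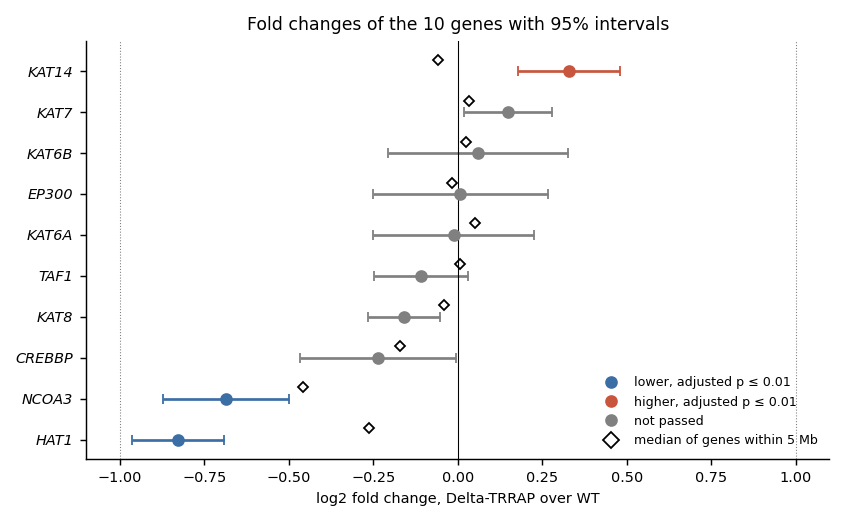
The log2 fold change of each of the 10 genes (horizontal axis, Delta-TRRAP over WT, circles) with its 95% interval from edgeR; diamonds give the median of expressed genes that start within 5 Mb, and dotted lines mark a fold change of 2. HAT1, NCOA3 and KAT14 stand away from 0, and the NCOA3 neighbours have the lowest median, -0.46.

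KAT14 (ENSG00000149474.13, chr20:18137228-18188387, plus strand), on the short arm of the same chromosome, was the member that rose. Its normalized counts were 366, 408 and 378 in WT and 485, 485 and 478 in Delta-TRRAP. The 3 Delta-TRRAP libraries nearly coincided above all 3 WT libraries. The mean rose from 384 ± 21.5 to 483 ± 4.23 (SD, n = 3), 126% of WT, a log2 fold change of 0.33 ± 0.07 SE (95% interval 0.18 to 0.48, edgeR adjusted p = 0.00069). Its 24 expressed neighbours had a median of -0.06, and 87.5% of them lay below it. PET117 shares 901 exonic bases with KAT14 on the same strand, and the counting dropped reads that fit both genes. PET117 itself had 15.6 to 40.3 normalized counts in the 6 libraries and did not pass (-0.32 ± 0.27, adjusted p = 0.3).

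In the ATAC complex, which holds KAT14 beside KAT2A or KAT2B, 6 of 10 further subunits passed lower and 1 higher. The shares over the 8851 genes above were 43.9% lower and 24.2% higher. KAT2B (PCAF) rose from 1953 ± 28.1 to 3778 ± 202 normalized counts, a log2 fold change of 0.95 ± 0.05 (edgeR adjusted p = 4.34e-10). Its paralogue KAT2A (GCN5) fell from 1656 ± 91.2 to 1179 ± 78.7, by 0.49 on the log2 scale (adjusted p = 4.27e-06). DR1, a TBP-binding repressor subunit, fell by 0.56 (adjusted p = 6.21e-08), and MBIP fell by 0.53 (adjusted p = 1.8e-07). KAT14 and KAT2B were the 2 genes of this complex that passed higher.

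The MYST enzymes KAT7 and KAT8 gave small differences that did not pass. KAT7 (HBO1, which acetylates H3 and H4 at origins and genes; chr17:49788624-49835026, plus strand) had 2491, 2744 and 2904 normalized counts in WT and 2938, 3172 and 2909.9 in Delta-TRRAP. The lowest Delta-TRRAP library lay just above the highest WT library. The mean went from 2713 ± 208 to 3007 ± 144 (SD, n = 3), a log2 fold change of 0.15 ± 0.06 SE (95% interval 0.02 to 0.28, edgeR adjusted p = 0.042). It passed in 4 of 16 fits with other settings, and without WT replicate 1 it was at 0.08 (edgeR adjusted p = 0.235).

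KAT8 (MOF, the enzyme of H4 lysine 16 acetylation; chr16:31114489-31131393, plus strand) had 1707, 1784 and 1802 normalized counts in WT and 1574, 1561 and 1605 in Delta-TRRAP. All Delta-TRRAP libraries were lower than all WT libraries, with little spread in either group. The log2 fold change was -0.16 ± 0.05 SE (95% interval -0.27 to -0.05), and the edgeR adjusted p of 0.0105 lay just outside the threshold. It passed in 5 of 16 fits with other settings, and its value ranged from -0.17 to -0.03 over the scalings.

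Subunits of the 2 KAT8 complexes, MSL and NSL, passed lower in 6 of 12 cases and higher in 1. Of the 8851 genes above, 43.9% passed lower and 24.2% higher. KANSL2, an NSL subunit, fell from 2496 ± 128 to 1286 ± 67.8 (-0.96 ± 0.06, edgeR adjusted p = 1.08e-09). PHF20, on the long arm of chromosome 20 described above, fell from 4219 ± 81.7 to 2302 ± 77.6 (-0.87 ± 0.05, adjusted p = 5.53e-10). WDR5, which NSL shares with methyltransferase complexes, fell by 0.42 (adjusted p = 2.37e-06).

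KAT6A and KAT6B (MOZ and MORF, paralogues that acetylate H3 with BRPF subunits) did not differ between the groups beyond their spread. KAT6A (chr8:41929479-42051994, minus strand) had 4116, 4475 and 4740.3 normalized counts in WT and 4369, 5396 and 3449 in Delta-TRRAP. Its log2 fold change was -0.01 ± 0.11 SE (95% interval -0.25 to 0.23, edgeR adjusted p = 0.929). KAT6B (chr10:74824927-75032624, plus strand) had 983, 999.6 and 1104 in WT and 1029.6, 1361 and 821 in Delta-TRRAP. Its log2 fold change was 0.06 ± 0.12 SE (95% interval -0.21 to 0.33, edgeR adjusted p = 0.686). In both genes Delta-TRRAP replicate 2 was above, and replicate 3 below, all 3 WT libraries.

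Among 9 further subunits of the KAT6A, KAT6B and KAT7 complexes, 4 passed lower, 2 higher and 3 did not pass. The shares over the 8851 genes above were 43.9% lower and 24.2% higher. BRPF3, a scaffold that can direct KAT7 to H3, went from 1733 ± 75.7 to 3458 ± 297 normalized counts (log2 fold change 1.00 ± 0.06, edgeR adjusted p = 2.09e-09), just under the fold threshold. JADE2, a scaffold that directs KAT7 to H4, fell from 1221 ± 26.8 to 377 ± 15.6 (-1.69 ± 0.06, adjusted p = 2.85e-12). The related JADE3 fell by 0.54 (adjusted p = 2.57e-06) and JADE1 by 0.45 (adjusted p = 1.52e-06). All 3 JADE scaffolds were thus lower, whereas BRPF1 and BRD1, the other BRPF scaffolds, had values of 0.07 and 0.14 and did not pass.

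EP300 and CREBBP showed the same spread among the Delta-TRRAP libraries. EP300 (p300; chr22:41092592-41180077, plus strand) had 2894, 3075 and 3357 normalized counts in WT and 3055, 3924 and 2387 in Delta-TRRAP. Its log2 fold change was 0.01 ± 0.12 SE (95% interval -0.25 to 0.27, edgeR adjusted p = 0.963). CREBBP (CBP; chr16:3725054-3880713, minus strand) had 2046, 2205 and 2261 in WT and 1787, 2268 and 1464 in Delta-TRRAP. Delta-TRRAP replicate 2 was above all WT libraries and the other 2 were below. The log2 fold change was -0.24 ± 0.11 SE (95% interval -0.47 to -0.01, edgeR adjusted p = 0.0643). Leaving out Delta-TRRAP replicate 2 gave -0.41 (adjusted p = 1.75e-05), and leaving out replicate 3 gave -0.10 (adjusted p = 0.246).

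TAF1 (chrX:71366222-71532374, plus strand) had 3889.9, 4198 and 4505 normalized counts in WT and 3826, 4220.2 and 3634 in Delta-TRRAP. The groups overlapped, and the log2 fold change was -0.11 ± 0.07 SE (95% interval -0.25 to 0.03, edgeR adjusted p = 0.155). Of the 14 further TFIID genes tested, 5 passed higher, 3 lower and 6 did not pass. The shares over the 8851 genes above were 24.2% higher and 43.9% lower. TAF4 fell from 707 ± 42.1 to 342 ± 39.1 (-1.04 ± 0.08, edgeR adjusted p = 2.7e-08). TAF4B, its paralogue, fell from 2455 ± 72.8 to 1391 ± 27.7 (-0.82 ± 0.05, adjusted p = 1.37e-09). TAF12, which pairs with TAF4 through a histone fold, rose by 0.35 (adjusted p = 4.8e-05). TAF1L, a retroposed copy of TAF1, had 9.59 ± 2.27 normalized counts in WT and 24.6 ± 6.20 in Delta-TRRAP (1.33 ± 0.31, adjusted p = 0.0014). Its sequence is close to that of TAF1, and reads that match both were left out of the counting.

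**Figure D3:**
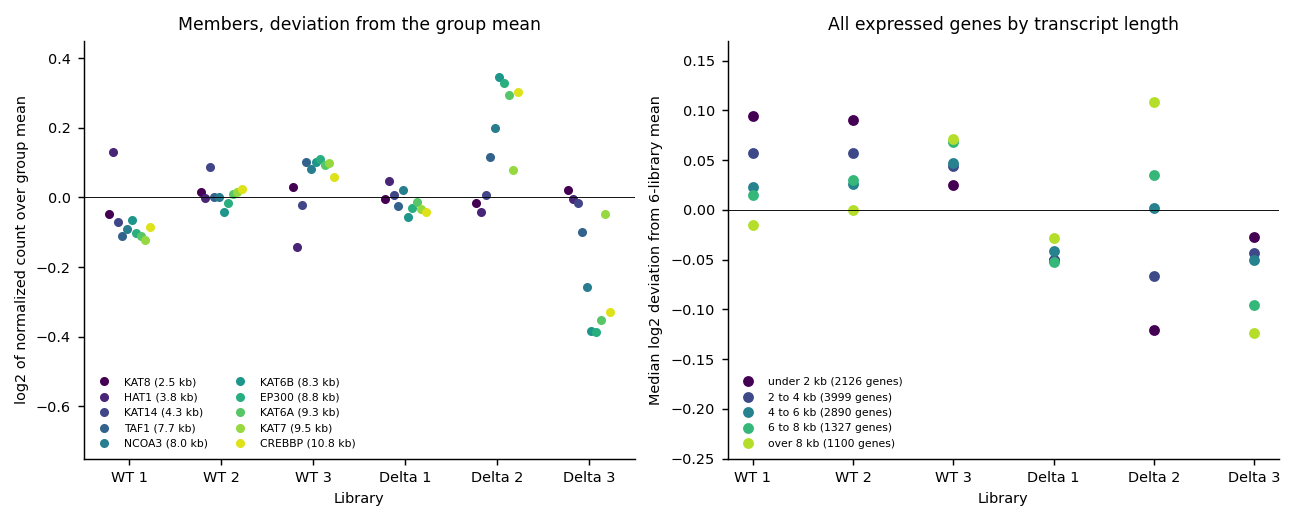
Left, log2 of each member's normalized count over the mean of its group in each library, coloured by the length of its longest transcript (kb); right, the median log2 deviation from the 6-library mean for expressed genes in 5 transcript length classes. In Delta-TRRAP the longest genes except KAT7 are high in replicate 2 and low in replicate 3, as the class over 8 kb is in the right panel.

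The spread within Delta-TRRAP went with transcript length. EP300, CREBBP, KAT6A and KAT6B have longest transcripts of 8.31 to 10.8 kb, and their counts were 55.0 to 65.8% higher in Delta-TRRAP replicate 2 than in replicate 3. In the short genes KAT8 (2.50 kb), HAT1 (3.85 kb) and KAT14 (4.31 kb) the same pair differed by -2.74, -2.61 and 1.54%. NCOA3 (7.96 kb) and TAF1 (7.70 kb) lay between, at 37.2 and 16.1%. KAT7 differed by 9.01%, although its longest transcript is 9.51 kb. The coefficient of variation of EP300, CREBBP, KAT6A and KAT6B was 22.0 to 25.4% in Delta-TRRAP and 5.14 to 7.50% in WT.

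Expressed genes in general followed the same order. For the 1100 genes with a longest transcript over 8 kb, the median log2 deviation from the 6-library mean was taken. It was 0.11 in Delta-TRRAP replicate 2 and -0.12 in replicate 3, and over the 2126 genes under 2 kb -0.12 and -0.03. The WT libraries also differed by length. Replicate 1 of WT was at -0.02 over 8 kb and 0.09 under 2 kb, and WT replicate 3 at 0.07 and 0.03. With a length trend removed from each library, an alternative chosen after seeing the data, EP300 was at 0.06 (edgeR adjusted p = 0.537), CREBBP at -0.19 (0.0254), KAT6A at 0.04 (0.645) and KAT6B at 0.12 (0.262), and none of these 4 passed. KAT7 passed, at 0.21 (adjusted p = 0.000847), and KAT8 moved to -0.05 (0.36). The setting also moved the median of all tested genes up by 0.11. The part of this general shift in the values of single genes was not tested.

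A ratio of 2 genes within a library does not depend on how the libraries are scaled. The EP300 to CREBBP ratio of counts per kilobase of exon was 1.87, 1.85 and 1.97 in WT and 2.26, 2.29 and 2.16 in Delta-TRRAP. The groups did not overlap, although each gene alone overlapped, and the ratio did not spread with Delta-TRRAP replicates 2 and 3 as the single genes did. The log2 ratio was 0.24 higher in Delta-TRRAP (two-sided exact permutation test over 20 assignments, p = 0.1, adjusted over 4 ratios 0.133). With 3 libraries against 3 the smallest p this test can give is 0.1. Leaving out any one library kept the difference between 0.22 and 0.27.

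The KAT6A to KAT6B ratio was 5.64, 6.03 and 5.78 in WT and 5.71, 5.34 and 5.66 in Delta-TRRAP. These groups overlapped, and the log2 ratio differed by -0.06 (exact permutation p = 0.3, adjusted 0.3). The 2 other MYST enzymes were set against TIP60 itself. Its KAT5 transcript fell from 2006 ± 46.9 to 1656 ± 44.2 normalized counts (-0.28 ± 0.05, edgeR adjusted p = 0.000163). KAT5 passed in 15 of 16 fits with other settings, and with library size alone it was at -0.14 (edgeR adjusted p = 0.0201). The KAT7 to KAT5 ratio was 0.275, 0.317 and 0.322 in WT and 0.392, 0.427 and 0.408 in Delta-TRRAP, a log2 difference of 0.43. The KAT8 to KAT5 ratio was 0.547, 0.596 and 0.578 in WT and 0.607, 0.608 and 0.651 in Delta-TRRAP, a log2 difference of 0.12. Neither pair of groups overlapped, and both ratios had the smallest possible exact permutation p of 0.1 (adjusted 0.133).

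**Figure D4:**
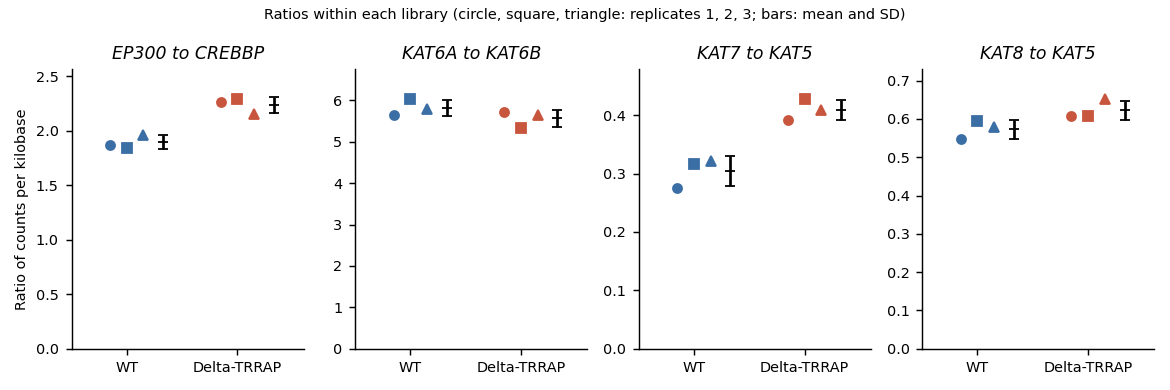
Ratios of counts per kilobase of exon (vertical axes, linear from 0) within each of the 3 WT (blue) and 3 Delta-TRRAP (red) libraries, with mean and SD. EP300 to CREBBP, KAT7 to KAT5 and KAT8 to KAT5 are higher in every Delta-TRRAP library, and the KAT6A to KAT6B groups overlap.

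Levels between genes were compared as counts per kilobase of exon, scaled to library size. HAT1 stood far above the rest, at 86.3 ± 8.11 in WT and 48.6 ± 1.52 in Delta-TRRAP. Next in WT came TAF1 (9.61), NCOA3 (8.34), KAT8 (7.92), EP300 (6.84), KAT6A (4.73), KAT7 (4.21), CREBBP (3.61), KAT14 (1.97) and KAT6B (0.814). In that order the neighbours NCOA3 and KAT8, and KAT6A and KAT7, overlapped between libraries and the other neighbours did not. In Delta-TRRAP the order was the same except that NCOA3 (5.18) came after KAT8 (7.09) and EP300 (6.87), and 5 pairs of neighbours overlapped. For scale, KAT5 was at 13.8 in WT and 11.4 in Delta-TRRAP, and KAT2B at 9.64 and 18.6.

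The middle of this order depends on the length used. Per kilobase of the longest transcript KAT8 came next to HAT1 in WT (18.1) and KAT6A rose above EP300 and NCOA3 (12.3), and KAT14 (2.29) below KAT6B (3.18). Summed over the 10 genes the level per kilobase of exon was 134 ± 5.27 in WT and 92.4 ± 4.67 in Delta-TRRAP (SD, n = 3). HAT1 made up 64.1 ± 3.52% of this sum in WT and 52.7 ± 3.40% in Delta-TRRAP. Without HAT1 the sum was 48.0 ± 2.84 and 43.8 ± 5.23, and the groups overlapped.

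Genes that work with these enzymes were read from 11 lists of 102 genes in all, of which 98 were tested. Of these 40 passed lower (40.8%), 18 higher (18.4%) and 40 did not pass, with a median log2 fold change of -0.12. Among the 8851 genes at or above the mean of the lowest member, 43.9% passed lower and 24.2% higher, with a median of -0.12. Over all tested genes the shares were 27.6% and 30.7%. Several of the partner genes lie far below the members in expression. The share of lower and higher calls in the lists depended on the scaling. With library size alone 30 passed lower and 34 higher, and with upper quartile scaling 34 and 28. These scalings moved the median of all tested genes by 0.14 and 0.10.

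Of 6 partners of EP300 and CREBBP tested, 2 passed higher, 1 lower and 3 did not pass. Over all tested genes 30.7% passed higher and 27.6% lower, and over the 8851 genes above 24.2% and 43.9%. CRTC1, a CREB coactivator, rose from 82.5 ± 9.13 to 243 ± 12.1 normalized counts (1.56 ± 0.11, edgeR adjusted p = 8.53e-09). CITED4, which binds the same domain of EP300 as other CITED proteins, had 4.62 ± 1.40 in WT and 26.0 ± 4.72 in Delta-TRRAP, a low level in both groups (2.46 ± 0.35, adjusted p = 1.35e-05). Its WT mean lay under the filter of 5, so CITED4 was tested only through its Delta-TRRAP counts. Its pass is therefore not read as a result. CREB1, the factor that recruits CREBBP when phosphorylated, fell by 0.29 (adjusted p = 0.000409). In the nuclear receptor list, which holds relatives of NCOA3, 2 of 5 passed lower and 3 did not pass. They were NCOA6 and CARM1, an arginine methyltransferase that NCOA proteins recruit, which fell by 0.56 (adjusted p = 2.79e-07). The closest relatives, NCOA1 and NCOA2, had values of 0.30 (adjusted p = 0.0112) and -0.18 (0.0484) and did not pass.

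Of 12 acetyltransferase genes outside the members, KAT5, KAT2A and KAT2B among them, 5 passed lower, 3 higher and 4 did not pass. ESCO1, which acetylates cohesin, fell by 0.70 (edgeR adjusted p = 1.95e-08). The opposing deacetylases gave 8 lower, 4 higher and 6 that did not pass of 18. For both lists, the shares over the 8851 genes above were 43.9% lower and 24.2% higher. Over all tested genes they were 27.6% and 30.7%. HDAC7, a class IIa deacetylase, fell from 4322 ± 178 to 1457 ± 88.2 normalized counts (-1.57 ± 0.06, adjusted p = 3.49e-12). HDAC2, a core class I enzyme, fell from 17919 ± 853 to 11677 ± 329.8 (-0.62 ± 0.05, adjusted p = 5.49e-08). The mitochondrial sirtuin genes SIRT3 and SIRT4 rose by 0.76 (adjusted p = 3.33e-08) and 1.16 (adjusted p = 0.00018), SIRT4 from only 32.7 ± 10.4 normalized counts.

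Of 7 readers of acetyl-lysine tested 1 passed higher, 2 lower and 4 did not pass, with DPF2 at 0.35 (edgeR adjusted p = 9.26e-06), BRD3 at -0.37 (2.82e-05) and ATAD2 at -0.28 (0.000143). Of 4 genes that supply acetyl-CoA 2 passed lower, ACLY, which makes it from citrate, at -0.28 (adjusted p = 0.000909) and ACSS2 at -0.39 (2.66e-06). For both lists, the shares over the 8851 genes above were 43.9% lower and 24.2% higher.

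**Figure D5:**
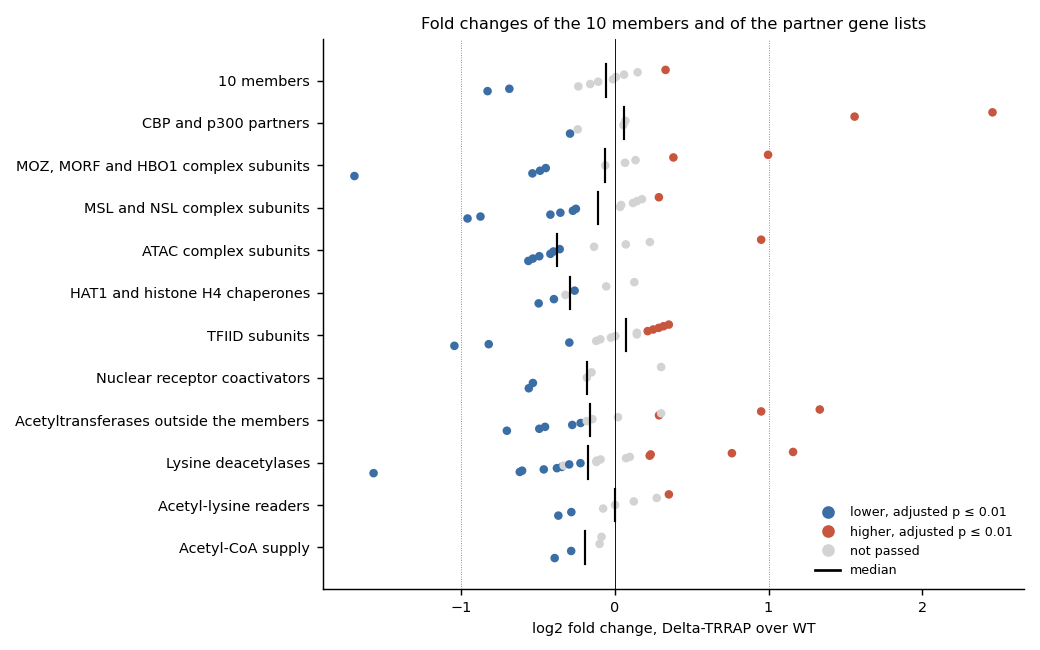
The log2 fold change (horizontal axis, Delta-TRRAP over WT) of the 10 members and of every tested gene in the 11 partner lists; colours give the edgeR adjusted p of 0.01 or less and direction, black ticks the median of each list, and dotted lines a fold change of 2. Most points lie within the dotted lines; JADE2, HDAC7 and TAF4 lie below them, and CRTC1, CITED4, TAF1L and SIRT4 above.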

How the data were processed

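Poly(A) RNA was sequenced from 3 WT and 3 Delta-TRRAP libraries. The authors aligned reads to hg38 with STAR, kept uniquely mapped reads, and counted them per gene with HTSeq 2.0.2 on GENCODE 32 (reverse strand, union mode, in which reads on 2 genes are dropped), and the deposited values used here are these raw counts, with no summary lines. Groups and replicate numbers came from the sample titles. A deposited table of the authors' own comparison (means, fold changes, p-values) and a normalized table with 3 columns of another condition were not used.

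Of 60609 genes, 34998 had a count and 19114 averaged 5 normalized counts or more. They were tested with edgeR 4.0.16 (R 4.3.3; quasi-likelihood, TMM on the tested genes, no covariate), with Benjamini-Hochberg adjustment over all of them. The thresholds were an adjusted p of 0.01 and, for calls, a fold change of 2. Alternatives used DESeq2 1.42.0, limma 3.58.1 (voom), other scalings, filters and thresholds, a replicate block and leaving out each library. Positions and lengths came from GENCODE 44 on the same genome build, matched by gene ID for 19041 tested genes; ZZZ3, listed under another symbol, was matched by its ID. The fit was tested on simulated data with known changes, in which all genes shared the same dispersion and no length trend was set. That test therefore does not cover the spread of the long genes in Delta-TRRAP. Replicate libraries differed by more than sampling noise.

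The members and gene lists were chosen with earlier results of these data known. Named were all 10 members, KAT5, EP400 and TRRAP, and from each list every gene called at a fold change of 2 and the 3 largest changes among genes past the adjusted p that averaged 100 normalized counts or more; the other genes given were named after their values were seen.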

Additional observations from a re-analysis of the deposited data

How the results depend on the processing

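HAT1, NCOA3 and KAT14 passed in the same direction in all 16 fits with other tools, scalings, filters or left-out libraries. Members passing higher numbered 2 instead of 1 with upper quartile scaling, library size alone or a mean normalized count of at least 50. The same number was given with the length trend removed (chosen after seeing the data) or an adjusted p of 0.05. Members passing lower numbered 4 instead of 2 with no filter. They numbered 3 with RLE scaling (another of the scalings), TMM without mitochondrially encoded genes or an adjusted p of 0.05. At a fold change of 1.5, 2 members were called lower instead of 0. Partner genes passing higher numbered 28 with upper quartile scaling, 34 with library size alone and 29 with the length trend removed, against 18; the cause was not tested. Leaving out 1 library gave 1 member higher and 2 to 3 lower, and 15 to 20 partner genes higher and 38 to 43 lower.

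Same-numbered libraries had correlated deviations of 0.09, -0.08 and -0.19, so the numbers were not read as pairs. With the replicate block 17 partner genes passed higher and 39 lower, and the members' counts stayed at 1 higher and 2 lower.

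There were 3 libraries of 1 clone in each group. The 95% intervals of EP300, KAT6A, KAT6B and TAF1 run to both sides of 0, so differences of a size inside them remain possible. Those of CREBBP, KAT7 and KAT8 leave out 0, although these genes did not pass the adjusted p of 0.01.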
